A study of Mus musculus with 18 samples.

Results

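The genes described here encode proteins of the contractile actin filament that are best known from smooth muscle: the smooth muscle actins Acta2 and Actg2, the actin-binding proteins Tagln, Cnn1, Cnn2 and Cald1, the myosin light chain Myl9, and the tropomyosins Tpm1, Tpm2 and Tpm4. They were chosen by symbol, as every probe set (a group of short array probes for a transcript) that the platform's annotation pairs with these 10 genes alone. This gave 22 of the 45101 probe sets on the array, for 10 of 18193 annotated genes. The 18 arrays held RNA of mouse embryonic stem cells in 6 groups of 3 replicates, grown in medium with serum and LIF. In 4 groups, CGR8 cells had been transfected by lipofection with an empty vector, with a plasmid labelled Foxd3 (a forkhead factor of pluripotent cells), with one labelled CA-NFATc3 (a form of NFATc3, a factor that calcineurin activates; CA usually stands for constitutively active), or with both together. In the remaining 2, conditional knockout cells (Foxd3fl/fl:Cre-ERT, in which tamoxifen activates a Cre recombinase against a floxed Foxd3) were read after DMSO, with 0 days of tamoxifen, or after 2 days of tamoxifen. CGR8 is the source name of these cells as well. The sources used here do not name the promoter driving Cre, a clone, feeder cells or the time after transfection. The labels call replicates biological without naming separate cultures, so p-values measure the spread between these arrays, which may be technical.

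In smooth muscle, myosin and actin form the contractile apparatus, tropomyosin lies along the actin filament, and caldesmon (Cald1) and the calponins (Cnn1, Cnn2) bind the filament and regulate its use. Many of these genes are classical targets of serum response factor (SRF), which binds a sequence named the CArG box together with myocardin or the actin-sensing cofactors of the MRTF family. Outside muscle the genes are active in fibroblasts and other cells with stress fibres, and Cnn2, Cald1 and non-muscle tropomyosins are made in many cell types.

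Promoters around the RefSeq start sites (build GRCm38.p6, 250 bases before to 50 after) were matched by symbol for 8 of the 10 genes, 9 promoters in all; Actg2 and Tagln were not matched. The 3 that held a CArG box, or a sequence 1 letter away from it, are shown because that box is the known site of SRF in smooth muscle genes. The box was taken as CC, an unbroken run of A or T, and GG at the usual spacing, a pattern that reads the same on both strands, and a near match as the same with a single C or G inside the run. Capitals mark these stretches in Acta2 at chr19:34255324-34255623 (minus strand), Myl9 at chr2:156775214-156775513 (plus strand) and Cnn2 at chr10:79988350-79988649 (plus strand), 5′ to 3′ in the direction of the gene.
Acta2: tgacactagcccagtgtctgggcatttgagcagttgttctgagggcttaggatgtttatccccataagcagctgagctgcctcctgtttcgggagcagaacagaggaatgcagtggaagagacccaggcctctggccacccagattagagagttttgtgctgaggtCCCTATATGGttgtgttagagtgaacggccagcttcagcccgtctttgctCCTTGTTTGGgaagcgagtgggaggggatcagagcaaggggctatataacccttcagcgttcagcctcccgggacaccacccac
Myl9: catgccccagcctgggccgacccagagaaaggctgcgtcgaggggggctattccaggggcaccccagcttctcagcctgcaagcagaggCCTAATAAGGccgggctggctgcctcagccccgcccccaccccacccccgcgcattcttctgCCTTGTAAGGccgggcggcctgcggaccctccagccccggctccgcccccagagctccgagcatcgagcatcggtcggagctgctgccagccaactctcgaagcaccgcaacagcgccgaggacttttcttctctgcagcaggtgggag
Cnn2: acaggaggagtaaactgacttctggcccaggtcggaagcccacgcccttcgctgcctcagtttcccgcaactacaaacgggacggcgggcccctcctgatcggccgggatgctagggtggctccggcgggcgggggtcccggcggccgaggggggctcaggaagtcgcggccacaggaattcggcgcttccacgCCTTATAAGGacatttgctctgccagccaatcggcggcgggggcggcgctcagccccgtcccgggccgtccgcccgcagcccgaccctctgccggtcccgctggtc
The exact box lay in Myl9 (CCTAATAAGG, its first base 161 bases before the start site) and Cnn2 (CCTTATAAGG, 56 bases before), 2 of the 9 member promoters, and in 1.63% of all 32851 promoters in the table. Near matches lay in Acta2 (CCCTATATGG, 84 bases before, and CCTTGTTTGG, 34 bases before) and in Myl9 (CCTTGTAAGG, 99 bases before), again 2 of the 9, and in 8.5% of all promoters. The letters GGAAA, a core of NFAT sites, were on either strand of 4 of the 9 and of 61.3% of all, and the forkhead core TGTTTA of 2 of the 9 and of 13.4% of all. These are matches of letters within a window of 300 bases.

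Signals are the deposited MAS5 values on a linear scale. A probe set was tested where at least 3 arrays of the fit reached 65.8, the median of all deposited values, called the floor below. In the transfected cells 14 of the 22 member probe sets passed, from 6 genes (Acta2, Cnn2, Cald1, Tpm1, Tpm2 and Tpm4), and in the knockout cells 18 passed, from all 10. The other 4, of Acta2 (2 probe sets), Cald1 and Tpm1, were under the floor in all 18 arrays. Changes are log2 differences of the signal plus 32, ± SE of the limma fit, with 3 arrays a group. A probe set is called where limma's p, adjusted by Benjamini and Hochberg over all probe sets tested, was under 0.05. Median signals ran from 55.2 to 67.1 in transfected and from 73 to 80.7 in knockout arrays. The check of the labels gave a Foxd3 signal of 443 ± 55.9 with vector (mean ± SD, n = 3, as for all such values) and 451 ± 38.6 with CA-NFATc3, but 237 ± 5.95 with the Foxd3 plasmid and 234 ± 37.7 with both plasmids. The arrays labelled Foxd3 thus went against their label (limma: -0.81 ± 0.13, adjusted p = 0.00239), and every direction below is that of the label. With DMSO the Foxd3 signal was 219 ± 25.9 and with tamoxifen 31.4 ± 29.6. Nfatc3 was not called for CA-NFATc3 against vector (0.13 ± 0.07, adjusted p = 0.452 in limma).

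Markers of differentiated smooth muscle were partly above the floor. Of 6 markers, 2 had a mean above it with vector, 2 with the Foxd3 plasmid, 2 with CA-NFATc3, 2 with both, 3 with DMSO and 4 with tamoxifen. Their summed signal ran from 272 to 311 with vector, 427 to 691 with DMSO and 529 to 565 with tamoxifen. Smoothelin (Smtn, 95.2 ± 12.9 with vector and 132 ± 23.1 with DMSO) and desmin (Des, 148 ± 6.82 and 237 ± 65.2) were above the floor in all groups, and Synpo2 was so in the knockout cells alone. Myocd (the cofactor myocardin) and Lmod1 had means under it in all 6 groups, and Myh11, the smooth muscle myosin heavy chain, in 5, with 69.4 ± 14.9 after tamoxifen.

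The 8 stem cell markers were above the floor in every group. Their sum ran from 93672 to 103456 with vector, 78179 to 80338 with DMSO and 71906 to 75816 with tamoxifen. Pou5f1 was at 10417 ± 675 with vector and 8707 ± 581 with DMSO, Nanog at 14756 ± 932 and 6017 ± 138, Esrrb at 4261 ± 231 and 1496 ± 116, and Klf4 at 13868 ± 493 and 8028 ± 207. Of the other cell types, 2 of 6 heart markers were above the floor with vector and 5 with DMSO (sums 348 to 375 and 801 to 812), and the cardiac troponin Tnnt2 was under it in all groups. Of 8 skeletal muscle markers 2 were above it with vector and 3 with DMSO (sums 387 to 449 and 528 to 588), while the factors Myod1, Myog and Myf5 were under it in all groups. Of 5 endothelial markers 2 and 2 were above it (sums 395 to 437 and 413 to 432), Pecam1 and Tek in all groups, with Cdh5 and Emcn under it. The part of these markers in the members' levels was not tested.

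The widest differences in the members' levels lay between the transfected and the knockout cells. Acta2, the actin of vascular smooth muscle and myofibroblasts, read 75.4, 48.3 and 70.9 with vector and 2262, 2834 and 3259.7 with DMSO. The DMSO mean was at least 39.4-fold higher, with vector arrays under the floor raised to it. Tagln, the actin-binding protein SM22-alpha, read 2.86, 13.7 and 5.0 with vector and 2226, 2572 and 4389 with DMSO, at least 46.6-fold higher. For both genes every knockout array lay above every transfected array. Myl9, a regulatory light chain of smooth muscle and non-muscle myosin, read 5.71, 5.72 and 14.8 with vector and 244, 312 and 459 with DMSO (at least 5.14-fold). Cnn1, the calponin of differentiated smooth muscle, was at 3.21 ± 1.61 with vector and 185 ± 39.1 with DMSO (at least 2.81-fold). Actg2, the enteric smooth muscle actin, was at 23.4 ± 25.3 and 59.4 ± 4.03, both under the floor, and gets no fold.

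The members that were well above the floor in all cells also differed. The DMSO mean was 7.7 times that of vector for the strongest Cald1 probe set (7529.6 against 977), 7.68 times for Cnn2 (1889 against 246) and 3.19 times for Tpm4 (5798 against 1818). It was 6.44 times for the strongest probe set of Tpm1 (3439 against 534) and 5.14 times for that of Tpm2 (4392 against 855). In all, 11 of the 22 member probe sets, from 7 genes, had all 3 DMSO arrays above vector and a mean at least 4-fold higher, against 0.699% of all probe sets. For 17 of the 22 all 6 knockout arrays lay above all 12 transfected arrays, against 9.31% of all probe sets. No test was made between the cells, because the line, its handling and its arrays cannot be told apart.

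**Figure D1:**
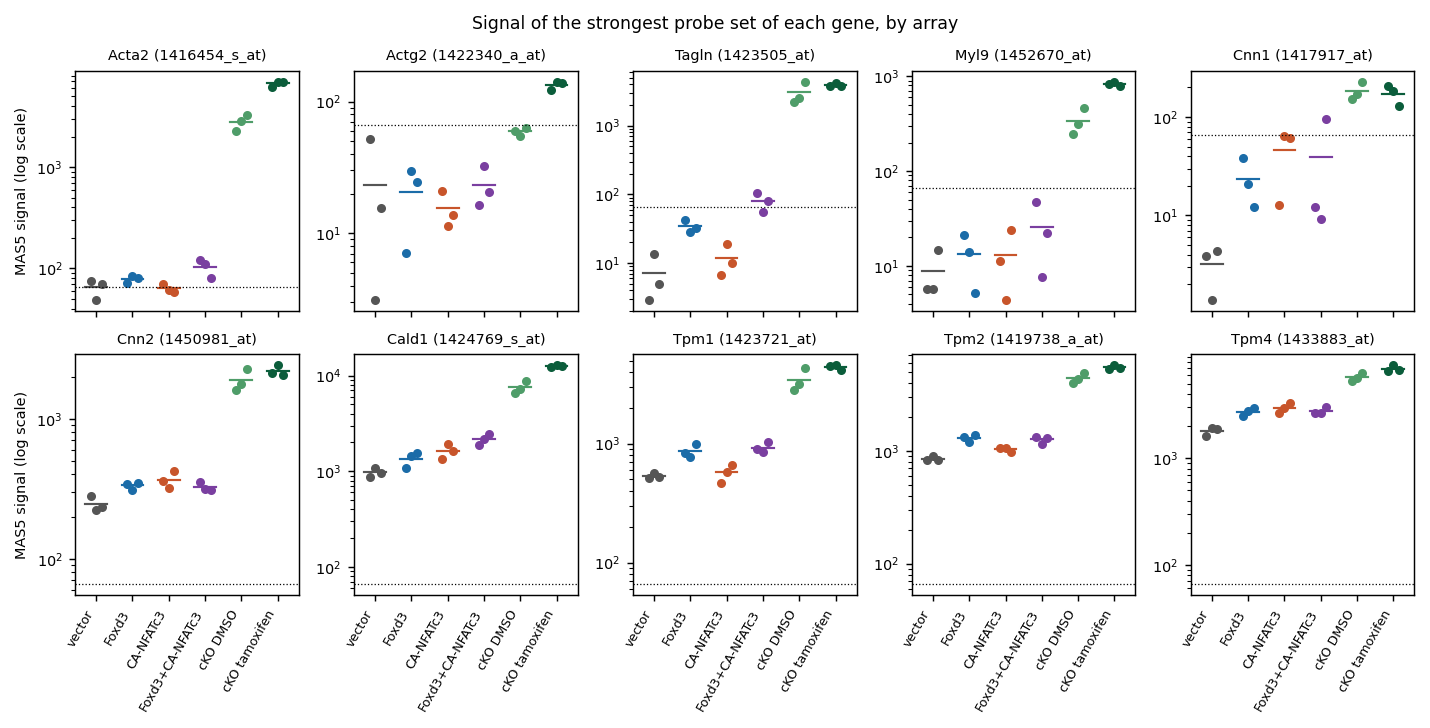
MAS5 signal (log axis) of the strongest probe set of each of the 10 genes in the 18 arrays; points are arrays, short lines are means of 3 arrays, and the dotted line is the floor of 65.8. Acta2 and Tagln lie at 2226 or more in the 6 knockout arrays and at 120.1 or less in the 12 transfected arrays, while the tropomyosins are above the floor in all groups.

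Markers of fibroblasts differed between the cells as well. The summed signal of 11 fibroblast genes ran from 633 to 679.5 with vector, 754 to 815 with the Foxd3 plasmid, 842 to 1067 with CA-NFATc3, 1237 to 1358 with both, 3216 to 3795 with DMSO and 16739 to 18984 with tamoxifen. With vector 3 of the 11 had means above the floor, and Col1a1, Col1a2, Col3a1, Pdgfra, Postn, Lum, Dcn and Fap did not. With DMSO 9 were above it, all but Lum and Fap, and with tamoxifen 11. Their part in the members' levels was not tested, and in bulk RNA fewer cells of a type and less RNA per cell cannot be told apart. Of the cytoplasmic actins, Actb was at 19897 ± 1482 with vector and 22229.7 ± 1144 with DMSO, and Actg1 at 25968 ± 1027 and 26539.6 ± 1019. The actins Acta1 (62.4 ± 36 with vector and 549 ± 174 with DMSO) and Actc1 (19.4 ± 15.1 and 71.2 ± 9.95) were higher with DMSO, with vector means under the floor. Actins are close in sequence, and the Acta2 probe set has a name ending in _s_at, which marks sets that may read several transcripts, as does the strongest set of Cald1.

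With the Foxd3 plasmid probe sets of the tropomyosins rose. Against vector 4 of the 14 tested member probe sets were called higher and 0 lower, from Tpm1, Tpm2 and Tpm4; 1.71% of all 23595 probe sets tested were called, 1.17% higher and 0.534% lower. The median change was 0.43 over the 14 and -0.01 over all. The strongest probe set of a gene is the one with the highest mean signal. Tpm1, which makes muscle and non-muscle tropomyosins by splicing, read 513, 568 and 522 with vector and 838, 769 and 1000.5 with the Foxd3 plasmid in its strongest probe set (0.66 ± 0.13, adjusted p = 0.0109 in limma). Tpm2, beta-tropomyosin, read 833, 907 and 826 with vector and 1336, 1193 and 1385 with the plasmid (0.59 ± 0.09, adjusted p = 0.00163), and 478, 415 and 404 against 680.5, 619 and 617 in the second probe set (0.53 ± 0.10, adjusted p = 0.00806). Tpm4, a tropomyosin of non-muscle cells, read 1629, 1937 and 1889 with vector and 2475, 2790.4 and 2938 with the plasmid (0.58 ± 0.10, adjusted p = 0.00401). In each of these probe sets all 3 arrays with the plasmid lay above all 3 with vector. The call of Tpm1 ended without vector replicate 3 or Foxd3 replicate 3 (adjusted p 0.0548 to 0.0823) and that of the second Tpm2 probe set without vector replicate 3 (adjusted p = 0.051).

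No other gene was called in this comparison. Cald1 was at 0.45 ± 0.15 in its strongest probe set (limma adjusted p = 0.182, 95% interval 0.13 to 0.76), Cnn2 at 0.40 ± 0.13 (adjusted p = 0.15, interval 0.14 to 0.67) and Acta2 at 0.20 ± 0.19 (adjusted p = 0.761, interval -0.20 to 0.59). The other Tpm1 probe sets tested were not called, at 0.50 ± 0.14 and 0.46 ± 0.20. Nor were the other Tpm2 sets, at 0.37 ± 0.25 (adjusted p = 0.628 in limma) and 0.13 ± 0.16 (adjusted p = 0.844). None of the 5 fibroblast genes tested was called.

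With CA-NFATc3, the strongest Cald1 probe set, Cnn2 and Tpm4 rose. Against vector 3 of the 14 were called higher and 0 lower; 3.57% of all 23595 probe sets tested were called, 2.84% higher and 0.729% lower. The median change was 0.13 over the 14 and -0.01 over all. Tpm4 read 2678, 2935 and 3312 with CA-NFATc3, all above its vector arrays (0.70 ± 0.10, adjusted p = 0.000397 in limma), and its call held in every alternative run. Cald1, whose product caldesmon binds actin, tropomyosin and calmodulin, read 874, 1092 and 966 with vector and 1329, 1942 and 1634 with CA-NFATc3 in its strongest probe set (0.71 ± 0.15, adjusted p = 0.0101), without overlap. The other Cald1 sets tested were not called in limma, at 0.43 ± 0.12 (adjusted p = 0.0715), 0.33 ± 0.20 (adjusted p = 0.559) and -0.10 ± 0.20 (adjusted p = 0.915). Cnn2, a calponin of smooth muscle and many other cells, read 282, 223 and 233 with vector and 357, 318 and 421 with CA-NFATc3 (0.51 ± 0.13, adjusted p = 0.0306), also without overlap. The call of Cald1 ended without vector replicate 1 or CA-NFATc3 replicate 2 or 3 (adjusted p 0.0541 to 0.0582). That of Cnn2 ended without vector replicate 2 or 3 or CA-NFATc3 replicate 1 or 3, with no filter, with quantile normalization or with only these 2 groups in the fit (adjusted p 0.0507 to 0.202). Without CA-NFATc3 replicate 3 the count of member calls was 1. Of the fibroblast genes tested, 1 of 5 was higher, Col3a1 (2.32 ± 0.22, adjusted p = 9.3e-06). Of the extraembryonic endoderm markers 2 of 6 were higher, Sox17 (1.47 ± 0.25) and Dab2 (1.20 ± 0.18). The endoderm sum was 6313 to 7345 against 5574 to 6217 with vector; Afp was under the floor. Sox17 passed the filter only with the help of the CA-NFATc3 arrays, so it had to differ from vector there, and without it 1 of 5 was higher. Col3a1, Sox17 and Dab2 had vector means under the floor, so their sizes depend on the offset. Of the heart markers 1 of 4 tested was higher, Myh7, at 52.1 ± 37.1 with vector and 142 ± 12.2 with CA-NFATc3 (1.15 ± 0.30, adjusted p = 0.0431 in limma). The heart sum was 456 to 580.04 against 348 to 375 with vector, with Nkx2-5, Tnnt2 and Actc1 under the floor. The part of these cell types was not tested.

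Tpm1 and Tpm2 were not called with CA-NFATc3. The strongest Tpm1 probe set read 469, 582 and 666, overlapping vector (0.08 ± 0.13, adjusted p = 0.873 in limma, 95% interval -0.19 to 0.35), and that of Tpm2 read 1051, 1056 and 977 (0.26 ± 0.09, adjusted p = 0.16, interval 0.07 to 0.44). The direct comparison of CA-NFATc3 with the Foxd3 plasmid, added after these values were seen, called 3 of the 14 lower and 0 higher; 6.09% of all 23595 probe sets tested were called, 3.97% higher and 2.12% lower. Those lower with CA-NFATc3 were the strongest Tpm1 probe set (-0.58 ± 0.13, adjusted p = 0.0102) and the strong Tpm2 probe sets (-0.46 ± 0.10, adjusted p = 0.00736, and -0.33 ± 0.09, adjusted p = 0.0334). The Tpm1 call ended without Foxd3 replicate 3 (adjusted p = 0.068), and the last of the Tpm2 calls without Foxd3 replicate 1 or 3 or CA-NFATc3 replicate 1, 2 or 3, with only these 2 groups in the fit or with no variance trend (adjusted p 0.0578 to 0.157). Without Foxd3 replicate 3 the count was 1. For Cald1 (0.26 ± 0.15, adjusted p = 0.406, interval -0.05 to 0.58), Cnn2 (0.11 ± 0.13, adjusted p = 0.754, interval -0.16 to 0.38) and Tpm4 (0.12 ± 0.10, adjusted p = 0.62, interval -0.09 to 0.33) the plasmids' difference did not pass in limma.

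**Figure D2:**
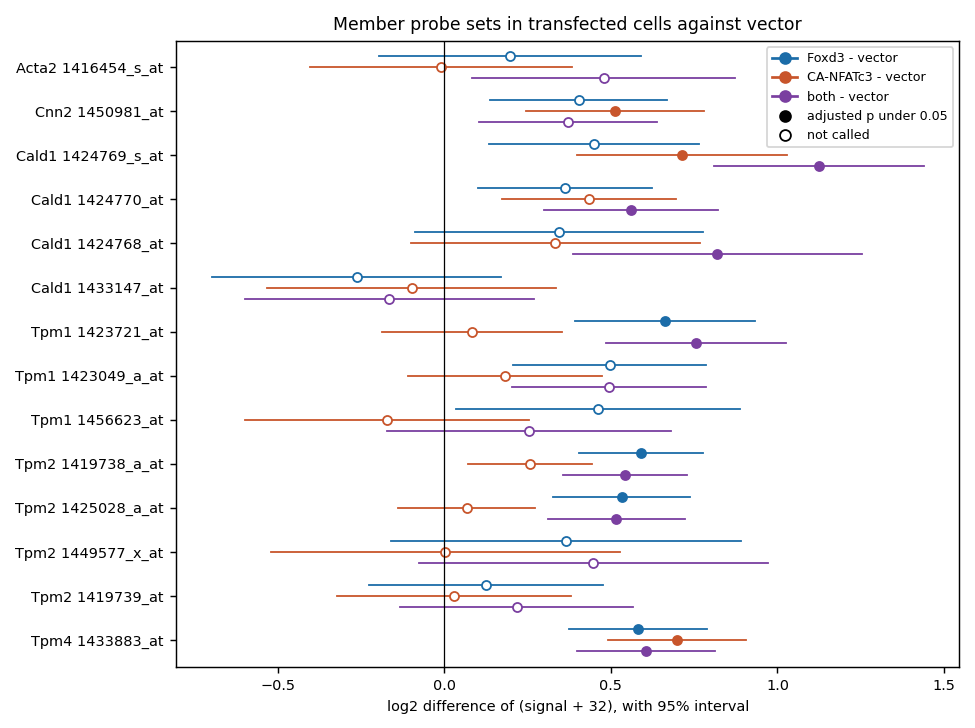
Log2 difference of the signal plus 32 against vector for the 14 member probe sets tested in transfected cells, with the 95% interval of the limma fit; filled points have an adjusted p under 0.05. The strongest probe sets of Tpm1 and Tpm2 are filled for the Foxd3 plasmid and for both plasmids and not for CA-NFATc3, the strongest Cald1 set lies at 1.12 with both plasmids, and Tpm4 lies between 0.58 and 0.70 in all 3 comparisons.

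With both plasmids probe sets of Cald1 and of the tropomyosins were higher. Against vector 7 of the 14 rose and 0 fell, from Cald1, Tpm1, Tpm2 and Tpm4; 2.84% of all 23595 probe sets tested were called, 2.16% higher and 0.678% lower. The median change was 0.51 over the 14 and 0.00 over all. The vector arrays are the same as in the comparisons above. Cald1 read 1892, 2188 and 2432 in its strongest probe set, above every vector array (1.12 ± 0.15, adjusted p = 0.000424 in limma), and its other called sets changed by 0.56 ± 0.12 (adjusted p = 0.0196) and 0.82 ± 0.20 (0.0419). Tpm1 read 896, 853 and 1030.2 (0.76 ± 0.13, adjusted p = 0.00298). Tpm2 read 1329, 1154 and 1303 (0.54 ± 0.09, adjusted p = 0.0021), with 0.52 ± 0.10, adjusted p = 0.0072 in its second set. Tpm4 read 2646, 2654 and 3039 (0.60 ± 0.10, adjusted p = 0.00205). None of these overlapped vector. Not called were the Tpm1 sets 1423049_a_at (0.50 ± 0.14, adjusted p = 0.0686 in limma) and 1456623_at (0.25 ± 0.20, adjusted p = 0.627). Nor were the Tpm2 sets 1449577_x_at (0.45 ± 0.25, adjusted p = 0.439) and 1419739_at (0.22 ± 0.16, adjusted p = 0.608). The Cald1 set 1433147_at was at -0.16 ± 0.20 (adjusted p = 0.786). Calls of the 2 weaker Cald1 sets were lost in alternatives: the call of 1424770_at ended without vector replicate 1 or 2 or both-plasmid replicate 2 or 3 or with only these 2 groups in the fit (adjusted p 0.0502 to 0.0846), and that of 1424768_at without vector replicate 1 or 3, CA-NFATc3 replicate 3 or both-plasmid replicate 1, 2 or 3, with no filter or with no variance trend (adjusted p 0.0558 to 0.16). Cnn2 read 355, 314 and 310.1, above vector but not called (0.37 ± 0.13, adjusted p = 0.153).

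Acta2 and Tagln, near or under the floor in transfected cells, had higher signals with both plasmids than with vector. Acta2 read 120.1, 109 and 79.6 with both, each array above vector, and was not called (0.48 ± 0.19, adjusted p = 0.226 in limma, 95% interval 0.08 to 0.87). Tagln, which did not pass the filter, read 104, 55.6 and 79.9 with both, 42.8, 28.2 and 32.6 with the Foxd3 plasmid and 6.72, 19.2 and 9.98 with CA-NFATc3, so that all 3 arrays with both lay above the other 9. In the fit without a filter Tagln was called for both against vector (1.50 ± 0.22, adjusted p = 0.00171 in limma) and against CA-NFATc3 (1.33 ± 0.22, adjusted p = 0.00326); with vector under the floor, the size depends on the offset. Myl9 (25.8 ± 20.3 with both), Actg2 (23.1 ± 8.47) and Cnn1 (39.2 ± 49.4) had means under the floor and were not called in that fit. Among fibroblast markers 3 of 5 tested were higher with both than with vector, led by Col1a2 (2.63 ± 0.25, adjusted p = 2.33e-05) and Col3a1 (1.63 ± 0.22), while Col1a1, Pdgfra, Postn, Lum, Dcn and Fap were under the floor. Col1a2 passed the filter only with the help of the arrays with both plasmids, of which 3 reached the floor, against 2 with the Foxd3 plasmid and 0 with vector. It thus had to differ from vector, and without it 2 of 4 were higher. Both collagens had vector means under the floor, so their sizes depend on the offset. Endoderm markers were higher in 2 of 6 tested, Dab2 (1.05 ± 0.18, with a vector mean under the floor) and Sparc (0.53 ± 0.12). The other 4 tested were not called, and Gata4, Gata6, Sox17 and Afp had means under the floor with both plasmids. Endothelial markers were higher in 1 of 3, Kdr (1.29 ± 0.32, with a vector mean under the floor), with Cdh5 and Emcn under the floor. Of the 8 stem cell markers 1 was lower, Esrrb (-0.26 ± 0.06). Their part in the members' changes was not tested.

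Tpm1 and a Tpm2 probe set were also higher with the Foxd3 plasmid in the presence of CA-NFATc3, while Tpm4 was not. With both against CA-NFATc3, 2 of the 14 were higher and 0 lower; 3.92% of all 23595 probe sets tested were called, 1.67% higher and 2.25% lower. They were the strongest Tpm1 probe set (0.67 ± 0.13, adjusted p = 0.0055 in limma) and the second Tpm2 probe set (0.45 ± 0.10, adjusted p = 0.0137), whose call ended without CA-NFATc3 replicate 3 or both-plasmid replicate 2 (adjusted p 0.0676 to 0.0733). The strongest Tpm2 set (0.29 ± 0.09, limma adjusted p = 0.0947) and Tpm4 (-0.09 ± 0.10, adjusted p = 0.759) were not called. Of the fibroblast genes 1 of 5 tested was higher there, Col1a2 (2.07 ± 0.25). Col1a2 needed the arrays with both plasmids to pass the filter, so its call is no support, and without it 0 of 4 were called. Its part was not tested. With both against the Foxd3 plasmid none of the 14 was called in limma, and 2 had an unadjusted p under 0.05; 0.225% of all 23595 probe sets tested were called, 0.22% higher and 0.00424% lower. The strongest Cald1 set was at 0.68 ± 0.15 there (adjusted p = 0.118, 95% interval 0.36 to 0.99).

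The interaction term asks whether the change with CA-NFATc3 differed in the presence of the Foxd3 plasmid. Of the 14 probe sets 1 was called lower and 0 higher; 0.424% of all 23595 probe sets tested were called, 0.0424% higher and 0.381% lower. It was Tpm4, at -0.68 ± 0.14 (limma adjusted p = 0.0446): its mean was 1818 ± 165 with vector, 2735 ± 236 with the Foxd3 plasmid, 2975 ± 319 with CA-NFATc3 and 2779 ± 224 with both, so the last 3 lay close together. The call ended without vector replicate 1, 2 or 3, Foxd3 replicate 2 or 3, CA-NFATc3 replicate 2 or 3 or both-plasmid replicate 1 or 2, with no offset, with no filter or with no variance trend (adjusted p 0.0562 to 0.185). The terms of Tpm1 (0.01, interval -0.37 to 0.39), Cald1 (-0.04, interval -0.48 to 0.41) and Cnn2 (-0.55, interval -0.92 to -0.17, adjusted p = 0.339) did not pass in limma.

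In the knockout cells Acta2, Myl9, Cald1 and tropomyosins rose with tamoxifen. Of the 18 tested member probe sets 11 were called higher and 1 lower, from 7 genes; 28.3% of all 24490 probe sets tested were called, 14.4% higher and 13.9% lower. One of the calls, that of Actg2, is no support, since Actg2 had to differ: it passed the filter only through the tamoxifen arrays. A Tpm2 probe set that was not called passed only with the help of the DMSO arrays, and without both 10 of 16 were higher and 1 lower, from 6 genes. The median change was 0.35 over the 18 and -0.01 over all. Acta2 read 6245, 6988 and 6846 with tamoxifen against 2262, 2834 and 3259.7 with DMSO, 2.41-fold on the signal plus 32 (1.27 ± 0.11, adjusted p = 4.69e-06 in limma). Myl9 read 828, 879.5 and 799 against 244, 312 and 459 (1.27 ± 0.17, adjusted p = 0.000178). Actg2 read 122, 142 and 138 against 59.7, 55.2 and 63.2, at least 2.03-fold higher since its DMSO arrays were under the floor. Its limma value (0.86 ± 0.16, adjusted p = 0.00213) is a description, for the reason given. The arrays of DMSO and tamoxifen did not overlap for these genes, and Acta2 and Myl9 kept their calls in every alternative run.

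Most tested probe sets of Cald1 and Tpm2, and that of Tpm4, were higher too. The strongest Cald1 probe set read 12328, 12799.7 and 12658 with tamoxifen against 6509, 7257 and 8822 with DMSO (0.75 ± 0.09, adjusted p = 6.29e-05 in limma), and its other called sets changed by 0.94 ± 0.10 and 1.08 ± 0.12. Tpm2 read 5364, 5713 and 5412 against 4009.5, 4300.1 and 4866 (0.33 ± 0.07, adjusted p = 0.00421), with 0.31 ± 0.08 and 0.88 ± 0.14 in its other called sets. The first of these lost its call with no variance trend (adjusted p = 0.0631). The second, 1449577_x_at, read 342, 306 and 422 against 165, 170.2 and 200.5. Tpm4 read 6609.6, 7431 and 6702 against 5359.8, 5676 and 6357 (0.25 ± 0.07, adjusted p = 0.0165), a call that ended without DMSO replicate 2 or tamoxifen replicate 2, with all 18 arrays in 1 fit or with no variance trend (adjusted p 0.0529 to 0.1). The arrays of the treatments did not overlap in these probe sets. The Cald1 set 1433147_at was not called (0.19 ± 0.12, limma adjusted p = 0.247) and overlapped. Nor was the Tpm2 set 1419739_at called (-0.32 ± 0.17, adjusted p = 0.203). It was lower in every tamoxifen array than in every DMSO array, but passed the filter only with the help of the DMSO arrays.

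The calponins and Tagln did not pass. Tagln read 3775, 4179 and 3826 with tamoxifen against 2226, 2572 and 4389 with DMSO (0.42 ± 0.18, adjusted p = 0.114 in limma, 95% interval 0.02 to 0.82), and a DMSO array was the highest of the 6. Cnn2 read 2139.6, 2404 and 2045 against 1613, 1778 and 2276 (0.23 ± 0.11, adjusted p = 0.155, interval -0.02 to 0.47), and Cnn1 206, 183 and 129 against 154, 172 and 229 (-0.09 ± 0.18, adjusted p = 0.762, interval -0.48 to 0.31). In both genes the treatments overlapped.

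The probe sets of Tpm1 went in opposite directions. The strongest, 1423721_at, read 4479, 4552 and 4200.3 with tamoxifen against 2841, 3148 and 4329 with DMSO (0.38 ± 0.12, adjusted p = 0.0336 in limma), and its highest DMSO array lay inside the tamoxifen range. The set 1456623_at read 296, 326 and 283 against 335, 417 and 540.5 (-0.45 ± 0.15, adjusted p = 0.0412), with every tamoxifen array below every DMSO array, and 1423049_a_at did not pass (0.13 ± 0.11, adjusted p = 0.415). The log2 ratio of 1456623_at to 1423721_at was -2.91 ± 0.08 (SD, n = 3) with DMSO and -3.74 ± 0.05 with tamoxifen, a difference of -0.83. These sets were paired because their calls in the same arrays were opposite, so the ratio had to differ and is a description. Its two-sided exact permutation p of 0.1, the smallest that 3 arrays against 3 allow, is therefore no support. The rise ended without DMSO replicate 1 or 2 or tamoxifen replicate 1, 2 or 3, with no filter or with no variance trend (adjusted p 0.0598 to 0.132), and the fall without DMSO replicate 2 or 3 or tamoxifen replicate 1, 2 or 3, with no filter, with all 18 arrays in 1 fit or with no variance trend (adjusted p 0.0641 to 0.149). Which Tpm1 transcripts each set reads was not analysed here.

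**Figure D3:**
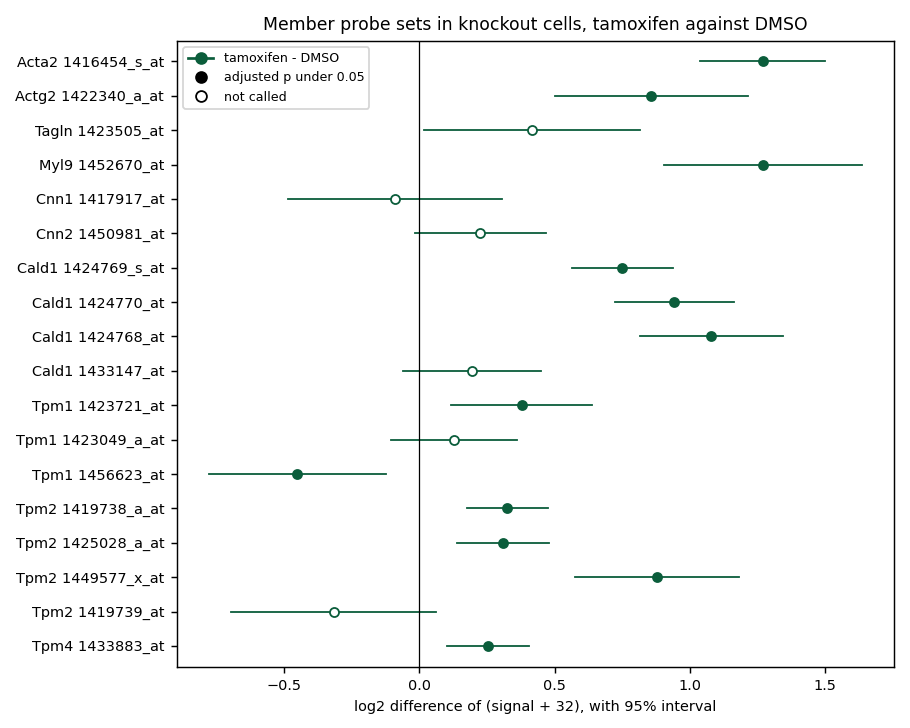
Log2 difference of the signal plus 32, tamoxifen minus DMSO, for the 18 member probe sets tested in the knockout cells, with the 95% interval of the limma fit; filled points have an adjusted p under 0.05. Acta2 and Myl9 lie at 1.27, the called Cald1 sets between 0.75 and 1.08, and the called Tpm1 sets on opposite sides of 0.

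The DMSO arrays differed among themselves in these genes. Of the 18 tested member probe sets 16 had their lowest DMSO signal in replicate 1 and their highest in replicate 3, which is 88.9%, against 21.9% of all 24490 tested. In the DMSO arrays Tagln lay at 0.727 to 1.43 times its DMSO mean and the fibroblast sum at 0.926 to 1.09 times. With tamoxifen the fibroblast sum was 4.82 to 5.47 times its DMSO mean, Acta2 2.24 to 2.51 times, Myl9 2.37 to 2.6 times and Tagln 1.23 to 1.36 times. Of the 11 fibroblast genes 10 were called higher with tamoxifen (Lum and Fap passed the filter only through the tamoxifen arrays, and without them 8 of 9 were), with the proteoglycan decorin (Dcn, 3.54 ± 0.18, adjusted p = 8.05e-08 in limma) and the matrix protein periostin (Postn, 3.49 ± 0.10) first. Of the 8 stem cell markers 3 were called lower, Pou5f1 (-0.19 ± 0.06), Sox2 (-0.17 ± 0.04) and Klf4 (-0.31 ± 0.05). Lower too were 1 of 3 skeletal muscle markers tested, the myosin Myh3 (-0.46 ± 0.14), and 1 of 2 endothelial ones, the receptor Tek (-0.62 ± 0.15). The other skeletal and endothelial markers tested were not called. Of all probe sets tested 13.9% were called lower and 14.4% higher. Of the endoderm markers 2 of 6 tested were higher, Dab2 (1.02 ± 0.12) and Sparc (0.85 ± 0.10), with Gata4 and Afp under the floor. The 3′ to 5′ ratio of the actin control probe sets, which reflects RNA integrity, was 2.15 ± 0.0884 with DMSO and 1.89 ± 0.00311 with tamoxifen. That of the Gapdh control was 1.01 ± 0.0309 and 1.01 ± 0.0144. The part of fibroblasts, of stem cell markers, of endoderm or of RNA integrity in the members' changes was not tested.

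**Figure D4:**
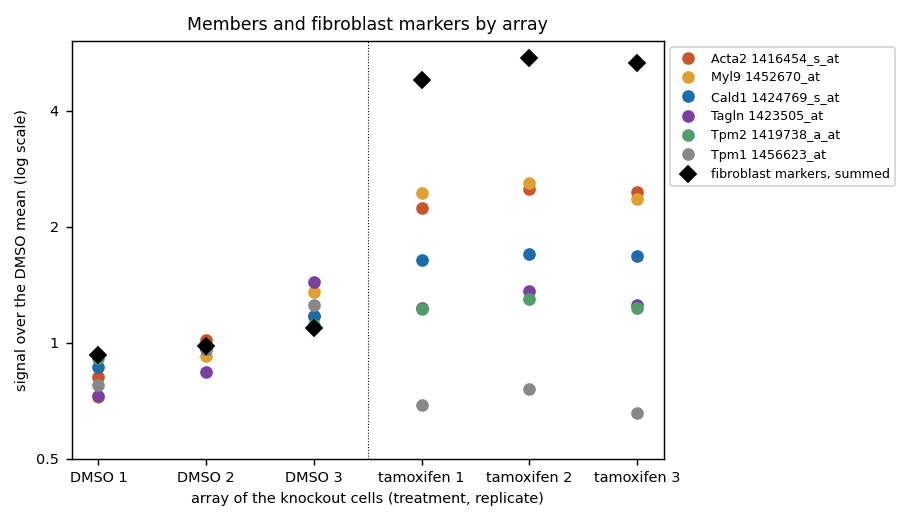
Signal of 6 member probe sets and summed signal of 11 fibroblast genes (diamonds) in the 6 knockout arrays, each divided by its own mean over the 3 DMSO arrays (log axis). In the tamoxifen arrays the fibroblast sum lies at 4.82 to 5.47, Acta2 at 2.24 to 2.51, Tagln at 1.23 to 1.36 with a DMSO array above it, and the Tpm1 set 1456623_at at 0.656 to 0.757.

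Other genes of the pathway were read by the strongest probe set of each. Srf itself was called in no comparison by limma: it was at 348 ± 17.9 with vector, 391 ± 62.3 with the Foxd3 plasmid, 393 ± 24.3 with CA-NFATc3, 422 ± 79.5 with both, 647 ± 17.4 with DMSO and 606 ± 57.1 with tamoxifen. Of 6 genes tested among SRF and its partners 1 was higher with CA-NFATc3, the ETS factor Elk3, which can bind beside SRF. Elk3 was at 206 ± 36.2 with vector and 615 ± 89.6 with CA-NFATc3 (1.45 ± 0.14, adjusted p = 1.28e-05). It was also the gene called of this list with both against vector (1.11 ± 0.14) and against the Foxd3 plasmid (0.92 ± 0.14). With tamoxifen 2 of 6 were higher, Elk3 (0.61 ± 0.11, adjusted p = 0.00142) and the SRF cofactor Mrtfb (0.42 ± 0.09, adjusted p = 0.00393).

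Among cross-linking and focal adhesion genes, Fhl2, a LIM-domain protein of the actin cytoskeleton and nucleus, had a vector mean under the floor, so the size of its changes depends on the offset. It was at 51.4 ± 13.1 with vector, 357 ± 45.8 with CA-NFATc3 (2.23 ± 0.18, adjusted p = 1.48e-06 in limma) and 152 ± 8.86 with both, lower than with CA-NFATc3 alone (-1.07 ± 0.18, adjusted p = 0.00186), and its interaction term was called (-1.62 ± 0.25, adjusted p = 0.00594). The related Fhl1 fell with the Foxd3 plasmid (-0.48 ± 0.08, adjusted p = 0.00279), the 1 called of 14. With CA-NFATc3 2 of 14 were higher, Fhl2 and the integrin chain Itgb1 (0.48 ± 0.11), and with both against vector 1 was higher (Fhl2) and 1 lower (Fhl1). With tamoxifen 9 of 15 were higher and 1 lower, with a list median of 0.31 against -0.01 over all probe sets. Filip1l, a filamin-interacting protein, was at 106 ± 13.8 with DMSO and 764 ± 30.9 with tamoxifen (2.53 ± 0.11, adjusted p = 3.46e-08), and Tgfb1i1, the focal adhesion adaptor Hic-5, changed by 1.11 ± 0.21.

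Of the other actins 1 of 4 tested was called higher with tamoxifen, the cardiac actin Actc1 (0.61 ± 0.17, adjusted p = 0.019 in limma). Actc1 passed the filter only with the help of the tamoxifen arrays, so its call is no support, and without it 0 of 3 were called. Among 7 myosin genes tested in transfected cells, the non-muscle heavy chain Myh9 was higher with both against vector (0.42 ± 0.10, adjusted p = 0.037). With tamoxifen 2 of 8 were higher, the light chain kinase Mylk (0.65 ± 0.22, adjusted p = 0.0432) and Myh9 (0.41 ± 0.07, adjusted p = 0.0013), and 2 were lower, Myh10 (-0.25 ± 0.05) and Myl12b (-0.20 ± 0.05). Mylk too passed the filter only with the help of the tamoxifen arrays, and without it 1 of 7 was higher and 2 were lower. Of 5 relatives of the members tested, the calponin Cnn3 was higher with CA-NFATc3 (0.25 ± 0.06, adjusted p = 0.0187). With tamoxifen Tpm3 was higher (0.13 ± 0.04) and Tagln2, a relative of Tagln, lower (-0.45 ± 0.11). In the TGF-beta list of 5 tested genes, the ligand Tgfb2 was higher with CA-NFATc3 (0.81 ± 0.20, adjusted p = 0.0323), with a vector mean under the floor, so that the size depends on the offset. With both against vector Tgfb2 (1.28 ± 0.20) and Skil, a repressor of SMAD signalling (0.38 ± 0.07), were higher. Smad7, an inhibitor of the pathway, was lower with the Foxd3 plasmid (-0.43 ± 0.08, adjusted p = 0.0114). The receptor Tgfbr2 was at 271 ± 35.2 with DMSO and 1043 ± 122 with tamoxifen (1.83 ± 0.11, adjusted p = 4.52e-07), where Skil was lower (-0.35 ± 0.05).

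Across the 12 transfected arrays the strongest probe sets of Tpm1 and Tpm2 were the most alike among the 6 tested member genes (Pearson r = 0.867) and those of Acta2 and Tpm4 the least (0.17). These arrays fall into 4 groups and share their scaling, so the values describe group differences as well as single arrays. Of 11603 other genes, those most like Acta2, whose signals lie near the floor, were Rhog (r = 0.911), Apbb3 (0.87), Scube3, Zbtb11os1 and R3hcc1l. Those most like Tagln, mostly under the floor, were Hoxb2 (0.945), Bbip1 (0.915), Arl3, Dip2c and Ssbp2. For Tpm1, added after its values were seen, they were Sema3c (0.963), Setd7 (0.953), Pdpn, Limd2 and Nrep.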

How the data were processed

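The authors deposited 1 intensity per probe set and array, which the submitters' processing notes name as MAS5 output; nothing further on that step was used here. Scale was checked on the files: with 2% trimmed at each end, the mean signal was 500.00 in all 18 arrays, and no pair of arrays shared over 0.00443% of its values. All columns were matched to labelled samples. Of 45101 probe sets 64 were controls and left out; 34945 had 1 symbol, 932 several and 9160 none.

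Log2 of the signal plus 32 was fitted by limma (version 3.58.1, under R 4.3.3) with a variance trend, no covariate and two-sided tests, apart for the 12 transfected and the 6 knockout arrays, over probe sets reaching 65.8 in at least 3 arrays. The fit was tested on simulated data. For a fold given as at least, arrays of the dimmer group under 65.8 were raised to it. Member probe sets called in a comparison were named with all arrays, as were members near the floor. From each other list, at most the 2 called genes with the largest change were named per comparison; Myh10 and Myl12b, levels of actins and markers, and the likeness to Tpm1 were added after their values were seen. The number of arrays limits the precision. The members and lists were chosen with earlier results of these data known. Alternatives changed the offset, filter, scaling, arrays fitted, variance trend, replicate block, probe sets per gene and single arrays. Plots used matplotlib 3.10.9 under Python 3.11.15.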

Additional observations from a re-analysis of the deposited data

Results flagged for a closer look

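The change of Tpm4 with CA-NFATc3 differed between cells without and with the Foxd3 plasmid, by the interaction term of the limma fit (-0.68 on the log2 scale, adjusted p = 0.0446). Its adjusted p ran from 0.00155 to 0.185 over the 23 alternatives, of which 12 ended the call.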

How the results depend on the processing

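Of 32 called changes of member probe sets, 18 kept their call in every alternative run. Each change was looked up in each alternative where its probe set was tested, 669 look-ups in all. The direction reversed in 0 of them and a call ended in 68. Counts of member calls stayed within 1.5 times with these exceptions. With 1 probe set per gene, which tests fewer members, they were 4 for both against vector, 1 for both against CA-NFATc3 and 7 for tamoxifen. The count for both against CA-NFATc3 was 4 with all 18 arrays in 1 fit and 4 with the replicate number as a block, and for both against Foxd3 1 and 1. The interaction count was 0 with no offset, 0 with no filter and 0 with no variance trend. The cause of these shifts was not tested. Leaving out single arrays gave 3 to 4 for the Foxd3 plasmid, 1 to 3 for CA-NFATc3, 5 to 7 for both against vector, 1 to 2 for both against CA-NFATc3, 1 to 4 for CA-NFATc3 against Foxd3, 0 to 1 for the interaction and 8 to 14 for tamoxifen. Same-numbered transfected arrays had residuals that correlated at 0.0716 to 0.263 (18 pairs), other pairs at -0.245 to 0.0345 (36 pairs). Every same-numbered transfected pair thus lay above every other pair, a hint from the data and not from the design; numbers were taken as pairs only where each such pair passed 0.1, which the lowest did not. Same-numbered knockout arrays lay at -0.026 to 0.0272. No alternative moved the median of all probe sets past 0.0432. Signals near the floor limit what can be said of Acta2, Tagln, Myl9, Cnn1 and Actg2 in transfected cells.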
